A study of Mus musculus with 10 samples.

Results

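Apoe, Clu, Abca1, Abca8a, Acsl3 and Dbi are lipid handling genes known from Müller glia, the glial cells that span the retina. These 6 named genes, of 21887 protein-coding genes in the gene table, were followed through maps of 4 histone H3 modifications. The maps were made by chromatin immunoprecipitation and sequencing (ChIP-seq) of Glast+ retinal cells, taken at postnatal day 28 from untreated mice of the strain C57BL/6. Glast is the glutamate transporter encoded by Slc1a3 and marks Müller glia. Antibodies to H3K4me3, H3K4me1, H3K27me3 and H3K9me3 were each used in 2 experiments, called Exp1 and Exp2, on chromatin of 25000 cells. Each of the 8 libraries gave a list of enriched regions, called islands, each with a p-value from the authors. The labels do not say how many animals were pooled, so the spread between experiments may be technical. The lists hold no read counts, and the depth behind an island is unknown.

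Müller glia take up, make and pass on lipid for the neurons they enclose. ApoE and clusterin (ApoJ, the product of Clu) are secreted apolipoproteins that carry lipid between cells. ABCA1 is the transporter that loads cholesterol and phospholipid onto apolipoproteins, and Abca8a encodes a related transporter of the ABCA family. ACSL3 activates long-chain fatty acids by joining them to coenzyme A, and the product of Dbi binds the resulting acyl-CoA in the cell. H3K4me3 lies at active and poised promoters, and H3K4me1 at enhancers and beside promoters. H3K27me3 is placed by Polycomb complexes, and H3K9me3 marks heterochromatin.

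Starts of 5 members are listed in RefSeq (GRCm38.p6, the coordinates of mm10). For Apoe, Abca1, Abca8a and Acsl3, the bases before the outermost listed start are shown because H3K4me3 islands lay over all or, at Abca8a in Exp2, a small part of them. Clu has no entry in that table. Each sequence holds the 250 bases before the start, 5′ to 3′, with each CpG dinucleotide in capitals.
Apoe (chr7:19699189-19699438, minus strand): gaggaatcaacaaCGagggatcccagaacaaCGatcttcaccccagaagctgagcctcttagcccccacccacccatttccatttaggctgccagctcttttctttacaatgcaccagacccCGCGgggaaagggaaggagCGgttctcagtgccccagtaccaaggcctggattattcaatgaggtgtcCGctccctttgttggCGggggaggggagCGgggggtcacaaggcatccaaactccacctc
Abca1 (chr4:53159896-53160145, minus strand): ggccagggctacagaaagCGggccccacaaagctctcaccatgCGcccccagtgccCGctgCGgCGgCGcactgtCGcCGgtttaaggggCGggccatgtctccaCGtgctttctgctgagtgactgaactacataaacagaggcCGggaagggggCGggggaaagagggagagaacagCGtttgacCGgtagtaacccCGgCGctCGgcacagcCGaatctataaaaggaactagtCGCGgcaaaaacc
Abca8a (chr11:110095938-110096187, minus strand): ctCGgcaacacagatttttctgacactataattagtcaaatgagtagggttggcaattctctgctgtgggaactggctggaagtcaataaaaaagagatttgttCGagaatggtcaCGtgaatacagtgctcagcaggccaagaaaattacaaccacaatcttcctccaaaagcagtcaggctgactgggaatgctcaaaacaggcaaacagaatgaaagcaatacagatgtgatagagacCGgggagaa
Acsl3 (chr1:78657575-78657824, plus strand): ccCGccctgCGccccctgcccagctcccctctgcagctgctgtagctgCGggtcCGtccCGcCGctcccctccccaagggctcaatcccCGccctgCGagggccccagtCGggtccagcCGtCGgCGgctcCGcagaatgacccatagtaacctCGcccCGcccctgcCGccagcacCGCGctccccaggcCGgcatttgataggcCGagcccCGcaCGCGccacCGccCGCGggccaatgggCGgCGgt
The sequences fall into CpG-rich and CpG-poor promoters. In windows of 300 bases, the 250 shown and 50 after the start, Acsl3 held 33 CpG and Abca1 26, against 10 for Apoe and 4 for Abca8a. The ratio of observed to expected CpG was 0.888 for Abca1 and 0.843 for Acsl3, both in the highest quartile of 17492 promoters (above 0.829). It was 0.403 for Apoe and 0.277 for Abca8a, both in the second quartile (0.220 to 0.577). H3K4me3 was found in both experiments within 1 kb of a listed start for 97.5% of the genes in the highest quartile and 44.6% of those in the second. All 4 had it in both experiments, which was the reason for showing them. That Apoe and Abca8a lay in the marked part of their quartile therefore follows from this choice.

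Short motifs were searched on both strands of the same windows, and positions are those of the leftmost base on the strand shown, counted back from the start. A TATA box (TATAAA) lay at position -29 of Abca1, and 13.3% of all promoters hold one. Abca1 and Abca8a each held the E-box CACGTG, at -147 and -136, which is in 7.91% of promoters and also matches the wider form CANNTG (68.8%). The GC box GGGCGG occurred 5 times in Acsl3 and 2 times in Abca1 (46.3% of promoters hold it), and CCAAT lay at -15 of Acsl3 (39.2%). The nuclear factor I motif TTGGCA lay at -201 of Abca8a (13.4%). In Apoe the Sox motif ACAATG lay at -144 (11.2%) and the Otx and Crx motif TAATCC on the opposite strand at -80 (6.5%). The Sox motif ACAAAG (16.8%) was in Apoe and Abca1. None of the 4 windows held TCACNCCAC, a sterol regulatory element (1.17%), AGGTCA, the hexamer of many nuclear receptors (14.5%), or TGACTCA, the AP-1 motif (4.56%). Only the motifs as written were searched, so sites that vary from them were not counted.

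Marks were first scored at gene ends, as an island within 1 kb of the same annotated end in both experiments. H3K4me3 was at 5 of the 6 members, against 58.6% of all protein-coding genes, and H3K4me1 at 5, against 54.6%. H3K27me3 was at 0 members, against 23.3% of genes, and H3K9me3 at 1, Abca8a, against 13.4%. The 5 members with H3K4me3 without H3K27me3 were Apoe, Clu, Abca1, Acsl3 and Dbi, a state found at 51.9% of genes. Abca8a was the exception because its annotated upper end lies 1643 bp beyond the listed start. At the start itself it had H3K4me3 in both experiments. With the listed starts in place of gene ends, H3K4me3 was at 5 of the 5 members that have one, against 60.2% of 17492 genes, and H3K27me3 and H3K9me3 were at 0 of 5, against 21.6% and 12.5% of those genes. With 6 genes, such counts describe these loci and were not tested. When only the better-ranked islands were kept, up to the median p-value in each list, H3K4me3 stayed at the ends of 3 members and was lost from Apoe and Clu, while its share over all genes fell to 40.7%.

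**Figure D1:**
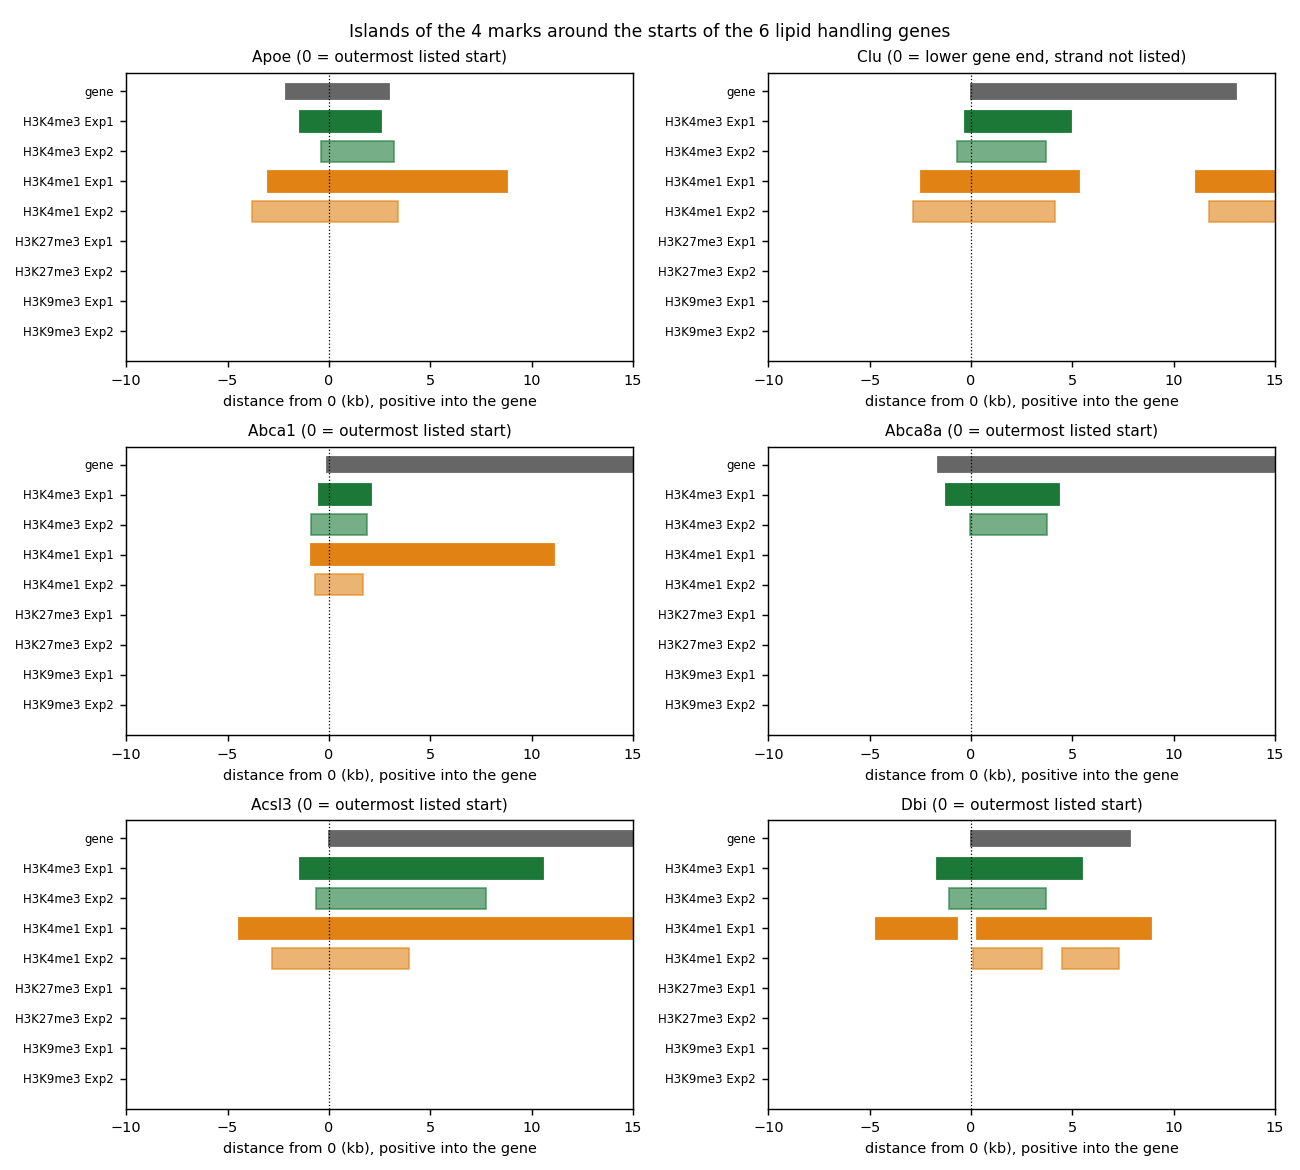
Islands of each mark and experiment (colours) around the 6 genes, by distance in kb from the outermost listed start (for Clu, from the lower gene end, since no strand is listed), with the annotated gene in grey. All 6 have an H3K4me3 island over position 0 in both experiments, Abca8a has no H3K4me1 island in the window shown, and no H3K27me3 or H3K9me3 island lies in it.

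The preparation was checked against markers of the cell types it could hold, by H3K4me3 at a gene end in both experiments. That mark was so found at 58.6% of all protein-coding genes. It was at 9 of 10 Müller glia markers (all but Aqp4), 5 of 5 rod markers and 3 of 4 markers of the pigment epithelium, of which Rlbp1 is also a Müller glia gene. H3K4me3 was at 0 of 6 microglia markers, 0 of 4 astrocyte markers and 1 of 5 endothelial markers (Kdr). Microglia and astrocytes are also known to make ApoE. The microglial genes Aif1, Cx3cr1 and P2ry12 and the astrocyte genes Gfap and S100b had no H3K4me3 island at an end in either experiment. The microglial gene Csf1r had one in Exp2 (2.8 kb) and the astrocyte gene Aldh1l1 in Exp1 (1.8 kb). Rod markers had H3K4me3 islands of 8 to 29.4 kb, and the marked Müller glia markers islands of 1.2 to 13 kb. H3K27me3 was at 2 Müller glia markers, Rlbp1 and Sox9, and at 0 rod markers, against 23.3% of all protein-coding genes. An island may be missing for want of reads, and the part of rod, microglial or astrocyte chromatin in the members' islands was not tested.

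The secreted apolipoprotein genes had H3K4me3 islands inside wider H3K4me1. Apoe (chromosome 7, 19696244 to 19701310, minus strand) had an H3K4me3 island over its start in each experiment, 4 kb wide in Exp1 and 3.6 in Exp2, with deposited p-values of 1.55e-88 and 3.12e-53. They ran from 1.41 and 0.412 kb before the listed start to 2.59 and 3.19 kb after it, and so covered 78.9% and 66.3% of the annotated gene. The annotated 5′ end lies 2122 bp beyond the outermost listed start, and H3K4me3 was within 1 kb of it in Exp1 alone. The end scored as marked in both experiments was the 3′ end, which the islands reached because the gene is short (5.07 kb). Its H3K4me1 islands of 11.8 and 7.2 kb covered the whole gene, and with p-values of 4.57e-152 and 8.06e-47 they stood far higher in their lists than those of H3K4me3. Only 4.16% and 5.31% of H3K4me1 islands had a lower p-value, against 64.0% and 58.9% of H3K4me3 islands. Apoe therefore ranked in the upper part of the H3K4me1 lists and the lower part of the H3K4me3 lists.

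The genes around Apoe were marked unevenly. Apoc1, Apoc2 and Apoc4, which encode further apolipoproteins on its 3′ side, had no H3K4me3 at an end in either experiment. Apoc2 had H3K4me1 in both experiments, and the Exp1 island over Apoe reached into Apoc1, which lies 3.58 kb away and had none in Exp2. On the other side Tomm40, which encodes a mitochondrial import channel, lies 2 bp beyond the annotated Apoe end. H3K4me1 islands from 3.01 and 3.81 kb before the Apoe start lay over that end too, so their share from each gene cannot be told apart. No H3K27me3 island lay within 93.7 kb of Apoe in Exp1 or 53.7 kb in Exp2, and no H3K9me3 island within 195 and 264 kb.

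At Clu (chromosome 14, 65968483 to 65981548) the H3K4me3 islands, 5.2 and 4.4 kb wide, lay at the lower end, with p-values of 2.86e-114 and 2.99e-96. They reached 4.92 and 3.72 kb into the gene and 0.282 and 0.682 kb outside it. H3K4me1 lay at both ends in both experiments, in islands of 7.8 and 7 kb at the lower end and 5.2 and 3.6 kb at the upper end. The lower-end islands enclosed those of H3K4me3 completely in each experiment. Further H3K4me1 islands of 15 and 11.2 kb ended 41.7 kb from the lower end, past Gulo, which encodes an enzyme of vitamin C synthesis and carried H3K4me3 islands of 2.8 and 1.6 kb. Clu stood farther from repressive islands than Apoe. The nearest H3K27me3 island was 178 kb away in Exp1 and 478 kb in Exp2, and the nearest H3K9me3 island 480 kb in both.

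The transporter genes Abca1 and Abca8a differed from each other at the start and inside the gene. Abca1 (chromosome 4, 53030789 to 53159988, minus strand) had the narrowest H3K4me3 islands at a start of the 6 members, 2.6 kb in Exp1 and 2.8 kb in Exp2. Their p-values were 2.42e-245 and 2.37e-174. The H3K4me1 island over this start was 12 kb wide in Exp1 but 2.4 kb in Exp2, a larger difference between experiments than that of H3K4me3. Inside the gene an H3K4me1 island of 5 kb in both experiments lay 41.3 to 46.3 kb from the start in Exp1 and 41.1 to 46.1 kb in Exp2, and 4 further islands were found in Exp1 alone. The shared island was among the better ranked in Exp1 (deposited p-value 3.83e-105, with 6.84% of the list lower) and less so in Exp2 (3.47e-25, with 15.1% lower).

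Both repressive marks lay at a single place deep in Abca1. An H3K27me3 island of 10 kb (chromosome 4, 53050001 to 53060000) and an H3K9me3 island of 9 kb (53052001 to 53061000) had the same borders in Exp1 and Exp2, about 100 kb after the start. The borders can only fall on steps of 5000 bp for H3K27me3 and 3000 bp for H3K9me3. These islands were narrow for their lists. In Exp1 and Exp2, 2.97% and 1.24% of H3K27me3 islands and 7.38% and 3.43% of H3K9me3 islands were narrower. The H3K27me3 p-values were 3.06e-24 and 1.98e-11, and those of H3K9me3 4.20e-51 and 1.49e-12. In Exp2 an H3K4me3 island of 1.2 kb lay inside the same stretch, with a p-value of 0.000677, and in Exp1 there was none. Islands of both repressive marks wholly inside a gene in both experiments were found at 1.07% of protein-coding genes, and at 8.56% of the 2429 genes of 100 kb or longer, of which Abca1 is one (129 kb). Of these islands, those of H3K27me3 and the H3K9me3 island of Exp2 had p-values above the median of their lists.

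Abca8a (chromosome 11, 110025634 to 110097580, minus strand) combined H3K4me3 without H3K4me1 at the start and repressive islands at the other end. Its H3K4me3 islands were 5.6 kb in Exp1 and 3.8 kb in Exp2, with p-values of 1.45e-81 and 7.28e-16. The Exp2 island began 0.063 kb before the start, so most of the promoter bases shown lay outside it. In Exp1 it reached 1.26 kb before the start. No H3K4me1 island lay within 1 kb of the start in either experiment. Of 10522 genes with H3K4me3 at a listed start in both experiments, 258 (2.45%) lacked H3K4me1 there in this way. Of the H3K4me3 length at the start, 0% lay inside H3K4me1 in both experiments, against medians of 100% in Exp1 and 82.4% in Exp2 over all genes with H3K4me3 at a listed start. Of those genes, 2.95% in Exp1 and 14.6% in Exp2 were also at 0%. Values for the other 5 members ranged from 86.1% to 100% in Exp1 and from 54.8% to 100% in Exp2. The H3K4me1 list of Exp2 held no island within 50 kb of Abca8a, and the nearest was 236 kb away.

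H3K9me3 lay at the 3′ end of Abca8a in both experiments, with an island 51 kb wide in Exp1 and 24 kb in Exp2. The Exp2 island stopped 0.634 kb short of the gene, while that of Exp1 ran over 32.5% of it. An H3K27me3 island of 15 kb lay at the same border in Exp1, with a p-value of 1.53e-34, and in Exp2 the nearest was 256 kb away. Within the H3K9me3 island of Exp2 lay an H3K4me3 island of 2.4 kb (4.89e-05), absent in Exp1. The H3K9me3 p-values were 2.52e-19 and 3.61e-20, and with windows of 500 bp, or with 50% of the window covered, or with islands up to the median p-value, the end no longer counted as marked. Over all 8 lists, the pattern at the ends of Abca8a was shared by 1 other protein-coding gene, Fam120c, which was chosen after its values were seen. This pattern scores H3K4me3 and H3K27me3 in Exp1 alone. The H3K4me3 island of Exp2 lay at the start but not within 1 kb of the annotated end, so the rarity depends on the annotation and the window.

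**Figure D2:**
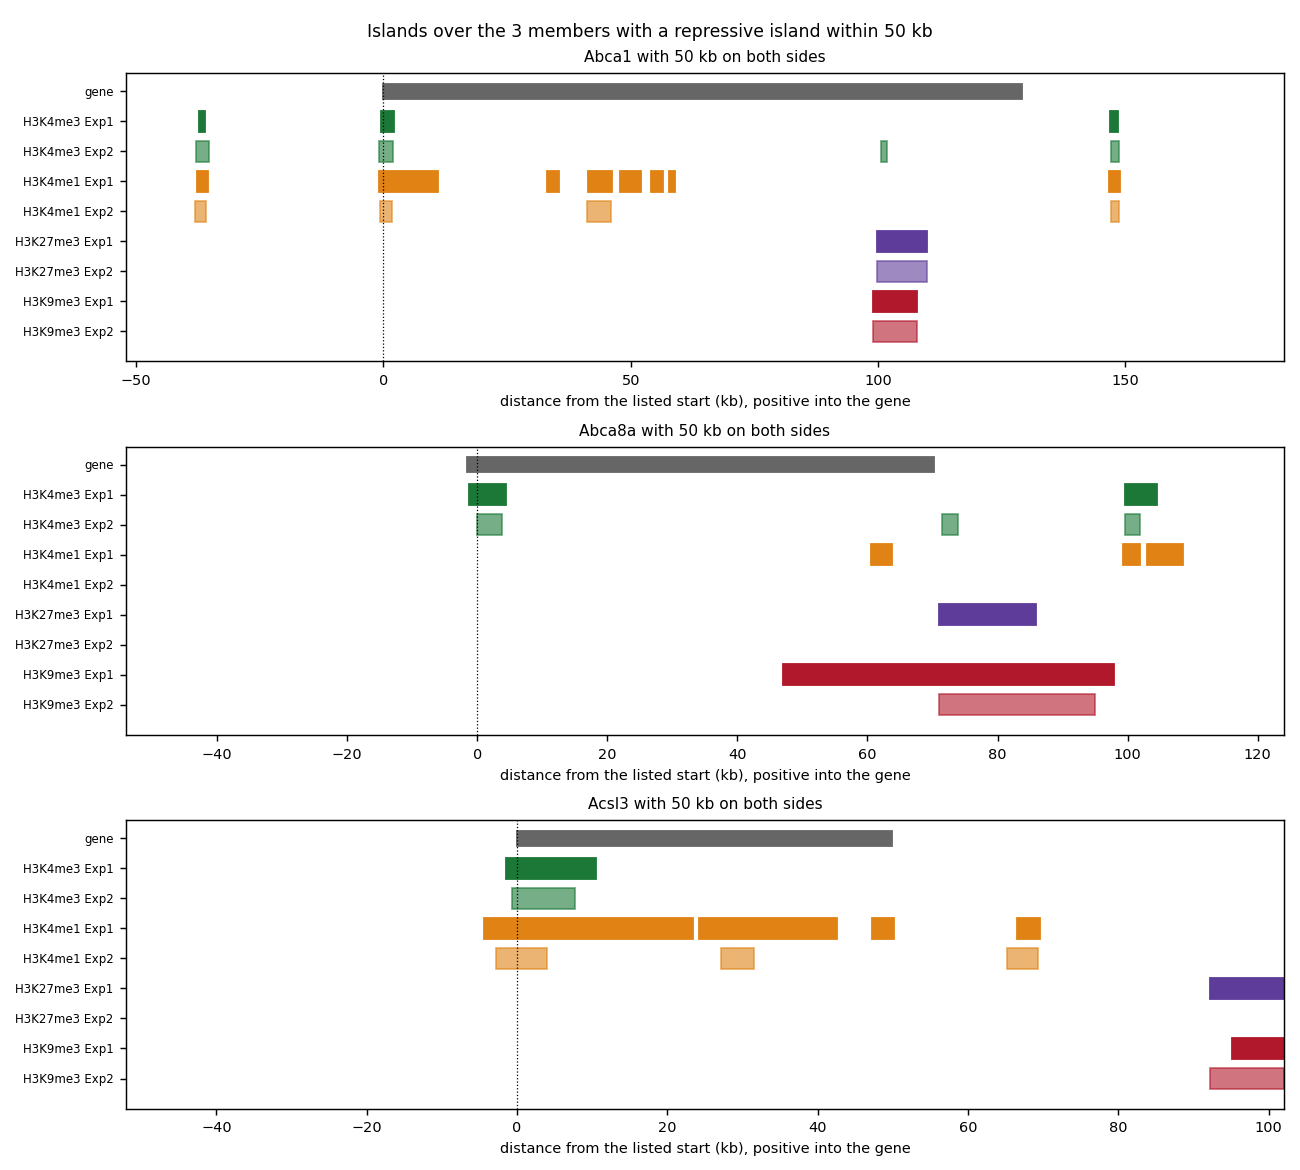
Islands of each mark and experiment over Abca1, Abca8a and Acsl3 and the 50 kb on both sides, by distance in kb from the listed start, with the annotated gene in grey. The islands of H3K27me3 and H3K9me3 inside Abca1 share their borders between experiments, those of Abca8a lie at the 3′ end and differ in width, and those near Acsl3 begin over 40 kb past the gene.

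Abca8a stands in a row of 5 related transporter genes, and the marks changed along it. Abca8b, 29.4 kb beyond the 3′ end, had H3K4me3 islands at its start of 5 and 2.4 kb, with H3K4me1 there in Exp1 alone. Abca9 and Abca6, which follow on the other side, had no island of any mark at an end or inside the gene in any of the 8 lists. Abca5, the last of the row, had H3K4me3 islands of 2.4 and 3.2 kb at its start and H3K4me1 in both experiments. H3K27me3 and H3K9me3 were at the ends of 0 of these 4 neighbours, against 23.3% and 13.4% of all protein-coding genes.

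Among the 6 members, the genes of fatty acid activation and acyl-CoA binding had the widest H3K4me3. Acsl3 (chromosome 1, 78657825 to 78707743, plus strand) had islands 12 kb wide in Exp1 and 8.4 kb in Exp2, mostly on the gene side of the start, where they reached 10.6 and 7.78 kb. Both p-values were listed at 0, as were 37.5% and 31.1% of those in the 2 lists. Of all genes with H3K4me3 at an end, 98.3% in Exp1 and 97.6% in Exp2 had a narrower island. Utp14b, which encodes a nucleolar protein, is annotated from the same start over 9777 bp of Acsl3, so the island cannot be divided between the genes. H3K4me1 covered 89.2% of Acsl3 in Exp1, in islands of 27.8, 18.4 and 3 kb, but 16.8% in Exp2, in islands of 6.8 and 4.4 kb. Medians over all genes were 14.0% and 5.79%. Repressive islands lay beyond the 3′ end, H3K9me3 at 45.3 and 42.3 kb from the gene in Exp1 and Exp2, and H3K27me3 at 42.3 kb in Exp1. In Exp2 the nearest H3K27me3 island was 82.8 kb away.

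At Dbi (chromosome 1, 120113280 to 120121096, minus strand) H3K4me3 islands were 7.2 and 4.8 kb wide, both with p-values listed at 0. They reached 5.50 and 3.70 kb into the gene and 1.70 and 1.10 kb before the start, and covered 70.3% and 47.3% of the gene. The gene 3110009E18Rik overlaps the Dbi start by 15 bp, and the same islands lay over both gene ends. No H3K4me1 island lay over the outermost listed start of Dbi itself in either experiment. In Exp1 an island of 8.6 kb began 0.296 kb after the start and another of 4 kb ended 0.705 kb before it, while in Exp2 an island of 3.4 kb began 0.096 kb after it and none lay in the 50 kb before it. No distal H3K4me1 island, over 2.5 kb from any gene end or start, was found within 50 kb in either experiment. No H3K27me3 island lay within 179 kb of Dbi and no H3K9me3 island within 362 kb in Exp1 or 449 kb in Exp2.

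The members were then ordered by H3K4me3 width, taken at the listed start, or for Clu at the lower end. Acsl3 had the widest islands (10.2 ± 2.55 kb, mean ± SD, n = 2), followed by Dbi (6.00 ± 1.70 kb), Clu (4.80 ± 0.566 kb), Abca8a (4.70 ± 1.27 kb), Apoe (3.80 ± 0.283 kb) and Abca1 (2.70 ± 0.141 kb). Acsl3 was wider than Dbi, and Apoe wider than Abca1, in both experiments with no overlap between the values. Values of Dbi, Clu and Abca8a overlapped across experiments, as did those of Abca8a and Apoe. Within each experiment Dbi was wider than Clu and Abca8a, and Abca8a wider than Apoe, and of neighbours in this order only Clu and Abca8a changed places between experiments. Medians over all marked genes were 3.4 kb in Exp1 and 2.8 kb in Exp2. Clu lay above 79.3% and 80.2% of marked genes, Apoe above 61.0% and 67.0%, and Abca1 above 25.1% and 45.7%. Exp1 gave the wider island at 5 members, by 1.11 to 1.5 times, and the narrower at Abca1 (0.929 times).

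**Figure D3:**
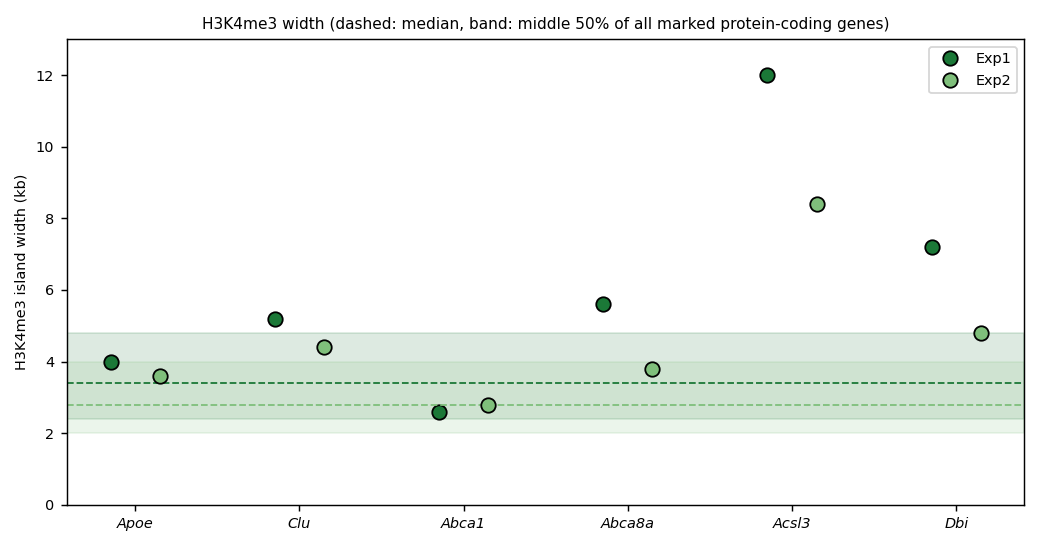
H3K4me3 island width in kb at each member in Exp1 and Exp2, with the median (dashed) and the middle 50% (band) of all protein-coding genes with H3K4me3 at an end in each experiment. Acsl3, at 12 and 8.4 kb, lies far above the bands, and Abca1, at 2.6 and 2.8 kb, lies within them.

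The members also differed in the 50 kb around each gene. No H3K27me3 or H3K9me3 island lay within 50 kb of Apoe, Clu and Dbi in either experiment, a state found at 37.8% of protein-coding genes. Abca1, Abca8a and Acsl3 had at least 1 such island, and H3K9me3 near Abca8a covered the most, 29.7% of its neighbourhood in Exp1 and 14.0% in Exp2. H3K4me1 covered 41.0% and 31.9% around Apoe and 41.2% and 27.2% around Clu, more than around at least 85.0% of genes in each experiment. Most of this lay in islands near the ends or starts of these or neighbouring genes. Distal H3K4me1 islands summed to 5 and 3.4 kb around Apoe and to 8 and 5 kb around Clu. Around Dbi H3K4me1 covered 14.5% and 7.23%, close to the medians over all genes (14.1% and 7.17%), and around Abca1 13.8% and 4.89%. Abca8a had the lowest values, 6.63% in Exp1 and 0% in Exp2. Acsl3 had 34.8% in Exp1 and 10.3% in Exp2, the widest gap between experiments among the members. H3K4me3 around Apoe covered 15.6% and 13.1%, of which the islands of neighbouring genes formed the larger part.

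**Figure D4:**
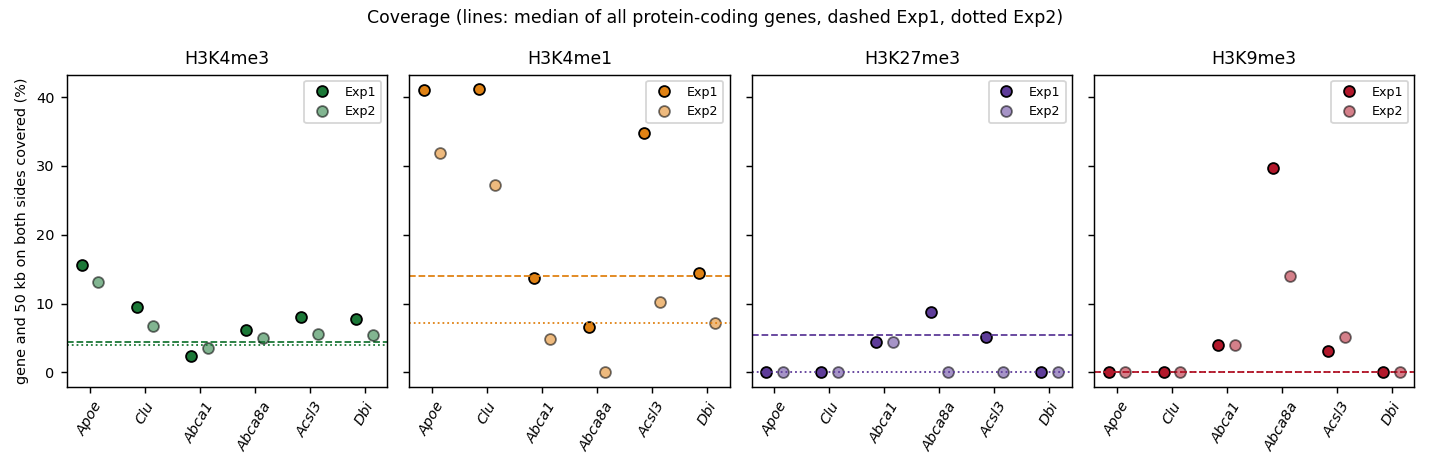
Percent of each gene and the 50 kb on both sides covered by islands of each mark in Exp1 and Exp2, with the medians of all protein-coding genes as lines. Apoe and Clu lie highest for H3K4me1 and at 0 for both repressive marks, and Abca8a lies highest for H3K9me3.

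Other genes of lipid handling were scored at their ends in the same way, with 86 genes in 6 roles. H3K4me3 was at 63 (73.3%, against 58.6% of all protein-coding genes) and H3K4me1 at 64 (74.4%, against 54.6%). H3K27me3 was at 8 (9.30%, against 23.3%) and H3K9me3 at 2 (2.33%, against 13.4%). Most had H3K4me3 without H3K27me3 (57, a state of 51.9% of all genes) and 21 had neither (24.8% of all genes). Both marks were at 6 (6.68% of all genes) and H3K27me3 alone at 2 (16.6%). The list was chosen with results of these data known, and these counts were not tested. Median H3K4me3 width among the marked genes was 3.8 kb in Exp1 and 3.2 kb in Exp2, against 5.4 and 4.4 kb among the members with an island at an end. At a listed start, H3K4me3 was found for 47 of the 64 genes that have one, against 60.2% of all genes with a listed start.

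Among genes of sterol synthesis and its regulators, H3K4me3 was at 20 of 22, against 58.6% of all protein-coding genes. The marked genes included Hmgcs1, which encodes an early enzyme of cholesterol synthesis (3 and 4 kb). Fdft1, the squalene synthase gene, and Insig2, which holds back the sterol sensor, had neither H3K4me3 nor H3K27me3 at an end, though Insig2 had H3K4me3 at its listed start. Fdps and Cyp27a1, enzymes of isoprenoid synthesis and of cholesterol oxidation, had both marks. Among lipoproteins, their receptors and enzymes, H3K4me3 was at 10 of 16, against the same 58.6%. The lipoprotein receptor gene Vldlr had it without H3K27me3, in islands of 14.6 and 7.6 kb. The apolipoprotein genes Apod, Apoc1 and Apoc2 had none in either experiment, and Apoa1 had it in Exp2 alone.

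ABC transporters of lipid had H3K4me3 at 12 of 16 and H3K27me3 at 0, against 58.6% and 23.3% of all protein-coding genes. Abca2 and Abca3 had islands of 3.8 and 6.4 kb in Exp1 and 3 kb each in Exp2, and Abca6, Abca9, Abca12 and Abca13 had none at an end. Acyl-CoA synthetases had H3K4me3 at 7 of 11, against the same 58.6%. Acsl1, with 3.2 and 4.8 kb, and Acsl4, with 3.4 and 3.2 kb, belong to the same family as Acsl3 and had narrower islands in both experiments. Acsl4 also had no H3K4me1 at an end in either experiment. Slc27a1, of the same role and chosen after its values were seen, had wider islands than Acsl3 in both experiments, 15.2 and 12.8 kb. Acsbg1 and Acsbg2 had neither mark at an end, as had Acsl5, which had H3K4me3 at its listed start, and Acss1, an acetyl-CoA synthetase gene, had both.

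Acyl-CoA and fatty acid binding proteins had H3K4me3 at 8 of 12, against 58.6% of all protein-coding genes. Acbd3 and Acbd4, which share the acyl-CoA binding domain of the Dbi product, had islands of 5 and 7.8 kb in Exp1 and 2.8 and 5 kb in Exp2. Fabp7, a fatty acid binding protein gene of radial glia, had H3K4me3 in Exp2 alone (1.8 kb) and H3K4me1 in both experiments. Fabp1 and Fabp4 had neither H3K4me3 nor H3K27me3, and Fabp3 had both. Scp2, chosen after its values were seen, had H3K27me3 with H3K9me3 at an end and H3K4me3 at its listed start. Lipid droplet genes had H3K4me3 at 6 of 9, against the same 58.6%, among them Plin1 (0.8 and 1.6 kb) and Plin2 (2.8 and 2.4 kb). Plin4 and Lipe had neither mark at an end, though Lipe had H3K4me3 at its listed start, and Plin5 had H3K27me3 alone.

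**Figure D5:**
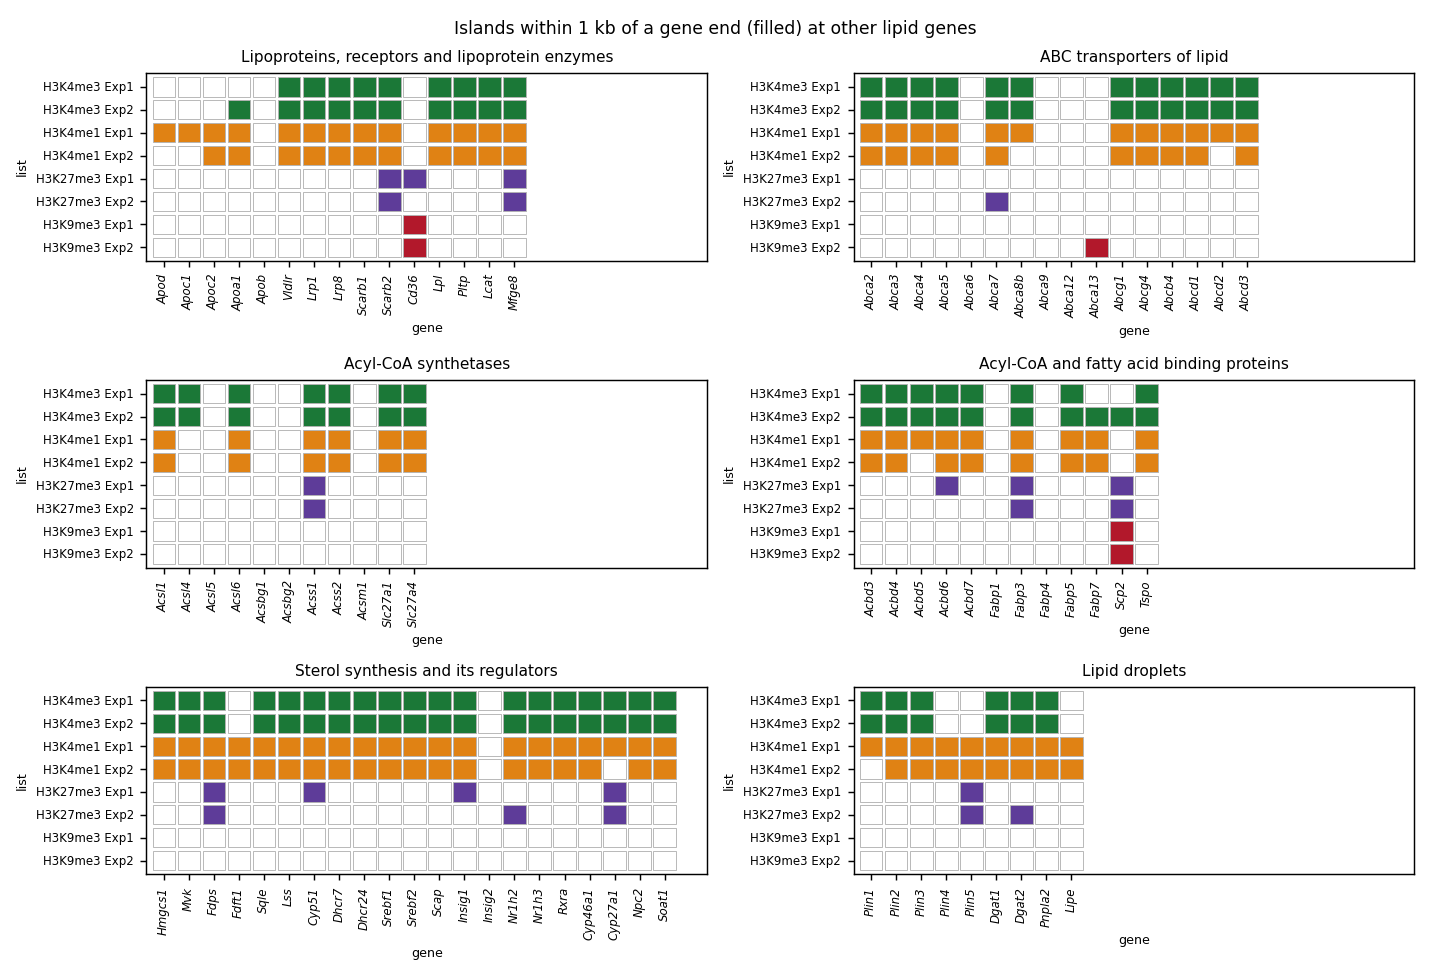
Presence of an island within 1 kb of a gene end in each of the 8 lists (rows, filled where present) for 84 of the 86 other lipid genes in 6 roles (columns). The rows of H3K4me3 are filled for most genes of sterol synthesis, and few genes of the 6 roles have H3K27me3 or H3K9me3.

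Genes most like each member were sought in this list among those with the same pattern over the 8 lists, by the mean absolute log2 difference in H3K4me3 width over the 2 experiments. The pattern of Apoe, Clu, Abca1, Acsl3 and Dbi, with both H3K4 marks and neither repressive mark in both experiments, was shared by 46 of the 86 genes and by 39.2% of all protein-coding genes. Lrp1, which encodes a receptor for ApoE, was closest to Clu (0.03), Lss to Apoe (0.08) and Rxra to Dbi (0.08). Cyp46a1 was closest to Abca1 (0.15) and Vldlr to Acsl3 (0.21). The pattern of Abca8a was shared by 0 of the 86. It counts no H3K4me3 in Exp2, though an island lay at the listed start there.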

How the data were processed

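The series holds 10 libraries of Glast+ cells at postnatal day 28: 8 ChIP libraries, grouped by mark with the experiment number as replicate, and 2 inputs, which were not analysed here. Reads were 50 bp long, per the labels' protocols. The submitters' processing notes name the build mm10 and the tools SICER, BWA 0.7.5a, bedtools 2.17, SAMtools 1.3.1 and FastQC, without their roles. In SICER, a caller of broad regions, nearby enriched windows form 1 island. Settings of SICER were not given in the sources used here. The authors deposited 1 island list per ChIP library, with a p-value per island; it may be a q-value, since no source names it further. Some islands had p-values above 0.05 (from 0 in both H3K4me3 lists to 1081 in H3K4me1 of Exp2). Island widths were multiples of 200 bp for the H3K4 marks, 3000 bp for H3K9me3 and 5000 bp for H3K27me3, so widths and overlaps are not comparable between marks. Depth is unknown, so no counting intervals are given.

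Islands were laid on RefSeq gene ends (1 kb either side, overlap of 1 bp or more), gene bodies and the 50 kb around, with Python 3.11.15 and numpy 2.4.6. All 6 members matched the gene table, and 5 the promoter table, from which starts and strands were taken. Neighbourhood coverage includes the gene itself. The overlap code was checked on simulated islands. With 2 experiments per mark and members chosen with results known, no test was run, and values are described beside those of all protein-coding genes.

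The members and lists were chosen with earlier results of these data known. In each role, the first genes in list order are named, at most 2 from the commonest state and at most 4 from the others, with the nearest genes of each member and the gene most like it. Some genes that this rule would name, and 1 promoter, are not reported here. Abca8b and Abca5 are named as a row of neighbours. Apoc4, Gulo, Slc27a1 and the single marker genes were picked with their values in view. Counts were recomputed for Exp1 and Exp2 separately, for a mark in either, smaller and larger windows (500 bp, 2.5 kb), windows covered to 50%, and islands at or below the median p-value of their list. Further alternatives were listed starts, a state within each experiment, neighbourhoods of 25 and 100 kb, and summed island length.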

Additional observations from a re-analysis of the deposited data

How the results depend on the processing

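Depth limits are unknown, since the lists hold no counts, and an island missing from a list may be missing for want of reads. Of the counts over the members and the 86 other lipid genes, 78 of 100 recomputed values stayed within 1.5 times the value reported. Many of these were counts of 0 that stayed at 0. The states are also formed from the same H3K4me3 and H3K27me3 calls, so the 100 values are not independent. With islands at or below the median p-value of their list, H3K4me3 was at 3 members, H3K9me3 at 0, 3 members had H3K4me3 without H3K27me3 and 3 had neither, and among the other lipid genes H3K4me1 was at 42, H3K27me3 at 4 and H3K9me3 at 1. Over all genes these 3 marks then stood at 32.3%, 18.8% and 11.2%. With a mark in either experiment, H3K27me3 was at 1 member, which then had both marks, and 0 had neither. Leaving out either experiment gave 0 to 1 members with H3K27me3, against 27.1% of all genes without Exp1 and 29.3% without Exp2. It also gave 0 to 1 members with both marks and 0 to 1 with neither. That member was Abca8a each time. With a mark in either experiment, H3K27me3 was at 15 of the other lipid genes, against 33.0% of all genes. Windows of 2.5 kb left 0 members with neither mark, and 50% coverage left 2, Apoe and Abca8a. H3K9me3 was at 0 members with windows of 500 bp and with 50% coverage, against 13.2% and 13.1% of all genes. It was also at 0 members at listed starts. At listed starts, which Clu and some of the other lipid genes lack, H3K27me3 was at 5 and H3K9me3 at 0 of the remaining 64. Over all genes with a listed start these marks stood at 21.6% and 12.5%. The experiment number pairs the lists of different marks, and no test was run. With the state formed within each experiment first, as a replicate block, 0 members had neither mark in both. Neighbourhoods of 100 kb, as means of both experiments, brought H3K27me3 to Apoe (12.8% covered), and raised it near Acsl3 from 2.58% to 18.4% and H3K9me3 there from 4.16% to 27.3%. The causes were not tested.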
